A study of Mus musculus with 19 samples.

Results

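Solute carriers are membrane proteins that move amino acids, sugars, nucleotides, ions, metals, vitamins and metabolites across the cell surface and the membranes of organelles, mostly without burning ATP directly. They were examined in mouse cells that lack either or both of a pair of microRNA clusters, miR-290 and miR-302. The genes were chosen by symbol: every row of the expression matrix named Slc or Slco, followed by a number, a letter and any further letters or digits, leaving out the glucose carriers Slc2a1 and Slc2a3. This gave 217 genes of the 12778 in the matrix, from 48 families, where 388 annotated mouse gene names meet the same rule. The families were placed in 11 groups by the substrate each family is best known for. The rule reads names, so it also takes in genes that are not carriers themselves: Slc7a6os, which lies opposite Slc7a6, the scaffold genes Slc9a3r1 and Slc9a3r2, and Slc4a1ap, named for a partner of an anion exchanger. These genes are counted below in the groups of the families in their names.

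Expression was measured by QuantSeq, which counts transcripts by a read near the poly(A) tail, in 19 libraries of 6 groups, all grown with LIF and fetal bovine serum. The induced pluripotent stem cells (iPSC) came from embryonic fibroblasts reprogrammed with Oct4, Sox2 and Klf4 and were sampled after many passages. They were wild type (WT, 3 libraries), miR-290 knockout (KO), miR-302 KO or KO of both clusters (double KO), with 2 colonies of 2 libraries for each KO genotype. The double KO cells are iPSC or iPSC-like by the series' own wording. Embryonic stem cells (ESC) were miR-290 KO or miR-302 KO, with 2 libraries each, and no WT ESC were used here. Each colony was derived on its own according to the series description, which excepts the WT controls, so that the 3 WT libraries may stand for 1 derivation and p-values against WT measure only the spread among these samples. A colony counts below as 1 sample, as does a WT or ESC library, which gives 13 samples.

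Carriers are grouped by what they do. Amino acid carriers of the surface work as exchangers or with sodium, and several need the heavy chain Slc3a2 to reach the membrane. Most members of the Slc25 family sit in the inner mitochondrial membrane, and the Slc35 family brings nucleotide sugars and related substrates into the Golgi and endoplasmic reticulum. The mitochondrial group below is the whole Slc25 family, wherever a member sits. Both microRNA clusters are expressed in pluripotent cells and make microRNAs that repress messages through short matches in the 3′ UTR, chiefly to the seed, bases 2 to 8 of the microRNA.

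The members of the clusters in the RefSeq table with the shared seed are printed first, since both clusters carry this seed. Capitals mark the seed, and the coordinates are those of GRCm38.p6. The miR-302 microRNAs lie on chromosome 3 (miR-302b-3p at chr3:127545275-127545297, plus strand) and the miR-290 microRNAs on chromosome 7 (miR-294-3p at chr7:3220691-3220712, plus strand).
miR-302b-3p: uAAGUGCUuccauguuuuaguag
miR-302d-3p: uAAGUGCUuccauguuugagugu
miR-291a-3p: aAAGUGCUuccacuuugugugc
miR-294-3p: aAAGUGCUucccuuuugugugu
miR-295-3p: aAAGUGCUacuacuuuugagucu
These 5 sequences share AAGUGCU at bases 2 to 8 and differ after it. Other microRNAs of the clusters have other seeds, such as AAGUGCC in miR-290a-3p and AGUGCUU in miR-302c-3p. Matches to those seeds were not searched for.

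The match of that seed, AGCACTT on the message strand, was looked for in 1 annotated 3′ UTR per gene (GENCODE M21, mm10). It was present in 36 of 216 solute carrier genes (16.7%) and in 1922 of 11834 genes in all (16.2%). A match was held by 15 solute carriers that were higher in the double KO, 7 that were lower and 14 that were not called. Of the higher genes, 22.7% of the carriers and 20.0% of all genes held it. Matches of some of the higher carriers are printed as examples with 26 bases each, the match in capitals. Those of others, such as Slc7a2 and Slc39a6, are not printed. Slc7a11 and Slc22a23 hold 2 each, Slc35a5 and Slc35b4 hold 1 each.
Slc7a11, chr3:50369421-50369446, minus strand: atattcttatAGCACTTctttatctc
Slc7a11, chr3:50367058-50367083, minus strand: ctgggttctgAGCACTTtgtgtgatg
Slc22a23, chr13:34182671-34182696, minus strand: ttttacgagaAGCACTTtatcccctt
Slc22a23, chr13:34180862-34180887, minus strand: gtcaaggtatAGCACTTcgaaacttc
Slc35a5, chr16:45141495-45141520, minus strand: tatcatacttAGCACTTgtattttaa
Slc35b4, chr6:34157963-34157988, minus strand: tgcacacttaAGCACTTtgcagcaca
A match is a description of the sequence and not a shown site of binding.

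Recovered reads per library ran from 6468285 to 25121972, with a median of 17552930. The 20 most abundant genes took between 8.58% and 17.0% of reads, with the highest share in the second library of miR-302 KO colony 1. Among named genes, Slc7a5 and Slc35a1 gained the call in double KO against WT when that library was left out. In miR-290 KO against WT, Slc1a1, Slc27a2, Slc6a6, Slc35b4 and Slc39a11 lost the call without that library. Without it, colony 1 of the miR-302 KO stands at 126 and not 71.5 CPM for Slc7a3, 537 and not 305 for Slc25a5, 4.32 and not 2.21 for Slc4a4, 2.96 and not 1.97 for Slc27a2, 0.91 and not 0.5 for Slc5a5, 0.569 and not 0.284 for Slc15a2, and 0.0569 and not 0.654 for Slc7a11, each over 1.5 times from the colony mean printed below. The microRNAs themselves are not read by this assay, so the genotypes were not checked against them. Among 10 pluripotency markers (Pou5f1, Nanog, Sox2 and others), all were lower in the double KO: the summed level of the 9 with recovered reads was 212 to 313 CPM there, 2680 to 3345 CPM in WT and 2838 to 3934 CPM in the other KO groups. Most of the double KO sum was Fgf4, which fell little (144 to 216 against 237 to 295 CPM in WT). Nanog was at 2.07 to 2.67 against 638 to 701 CPM, and Pou5f1 at 22.5 to 26.9 against 496 to 737 CPM. The 5 fibroblast markers in the matrix summed to 3.22 to 28.5 CPM over all samples, with 5.13 to 28.5 CPM in the double KO and 7.39 to 10.2 CPM in WT. In the double KO Twist1 was called higher, Thy1 and Pdgfrb were called lower, and Fbn1 and Col1a1 were not called. The 4 primitive endoderm markers in the matrix summed to 725 to 826 CPM in the double KO, against 80.7 to 98.5 CPM in WT. That sum was carried by Col4a1 (654 to 736 against 18.4 to 30.1 CPM), while the defining Gata4, at 0 reads, and Dab2 were called lower and Lamb1 was not called. The 7 trophoblast markers summed to 14.6 to 60.5 CPM in the double KO and 132 to 533 CPM in WT. Of these, 5 were called lower in the double KO, among them Krt8, Krt18 and Tfap2c. Cdx2 (0.518 to 21.7 against 1.875 to 5.47 CPM in WT) and Eomes (9.03 to 15.98 against 10.37 to 12.92 CPM) were not called. Of 4 neural markers, Sox1 (61.3 to 64.2 against 1.26 to 4.17 CPM in WT) and Nes were called higher in the double KO, and Pax6 and Tubb3 lower. Of 4 mesoderm markers, Kdr was called higher (7.95 to 17.8 against 0 to 0.157 CPM), T and Mixl1 lower, and Hand1 was not called. The part of this loss of pluripotency markers in the carrier results below was not tested, and in bulk samples fewer cells of a type and less RNA per cell cannot be told apart.

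Levels are reads scaled to a common library size (CPM), rebuilt from the deposited log2 values. They are not divided by gene length, so they are compared between samples and not between genes. Of the 217 solute carriers, 147 reached 1 CPM in all 13 samples and 216 in at least 2. Differences were tested on the deposited log2 scale with limma over all 12778 genes, and a gene is called where its p, adjusted by Benjamini and Hochberg's method, was under 0.05. A log2 fold change on this scale includes a small prior of a few reads and understates the change of weakly expressed genes.

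The loss of both clusters was set against WT iPSC to ask which transport functions differ. In the double KO 66 carriers rose and 55 fell, which is 121 of 217 (55.8%). Over all genes tested, 54.0% were called, 30.6% higher and 23.4% lower. The share of carriers called was thus close to the share of all genes. The median log2 fold change was 0.28 for the carriers and 0.17 for all genes, and centring each library on its median brought the latter to 0.01 and the carriers to 60 higher and 60 lower. Without colony 1 of the double KO, 52 carriers were higher and 45 lower. A change of at least 1 on the log2 scale was seen in 99 of the 121. No setting moved the count by over 1.5 times.

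**Figure D1:**
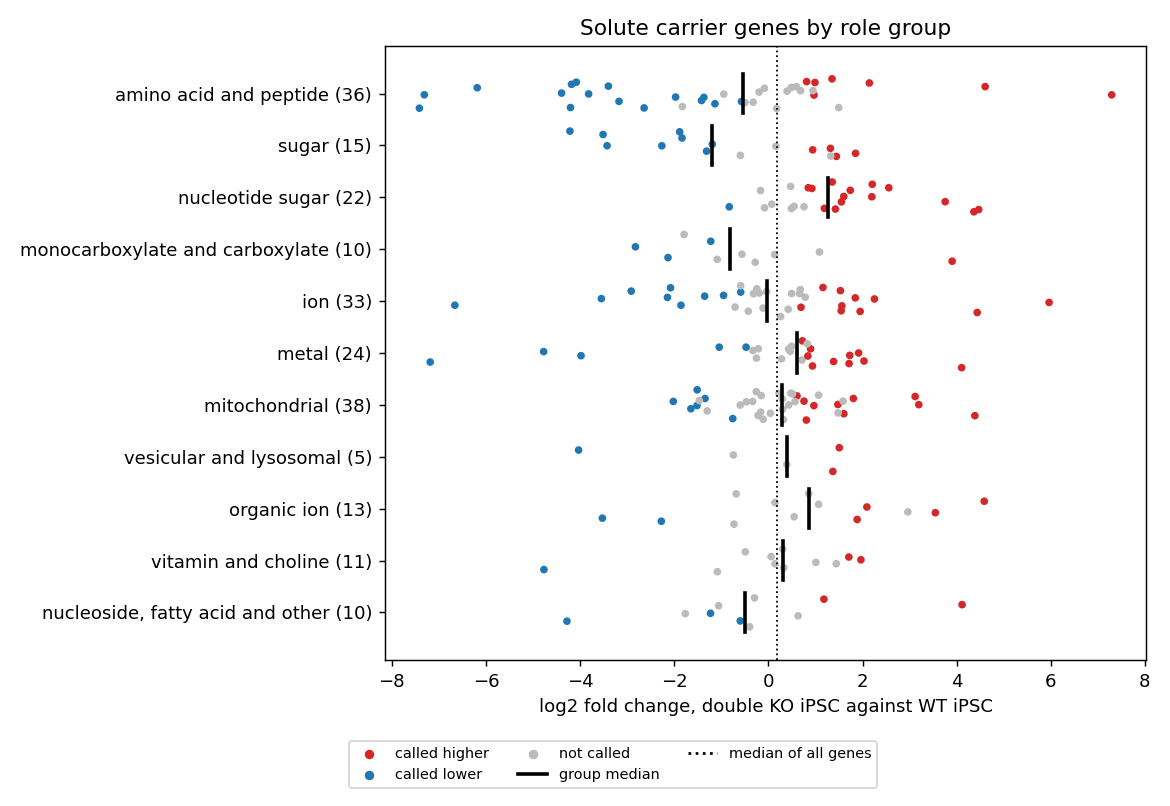
Log2 fold change of each of the 217 solute carriers in double KO against WT iPSC (x axis), by role group (y axis, number of genes in brackets); red points were called higher, blue points lower and grey points not called, black bars are group medians and the dotted line is the median of all genes. The median of the 22 Slc35 genes is 1.27 and that of the 15 sugar carriers −1.19.

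Direction differed between role groups. Of 22 Slc35 genes, 14 were higher and 1 lower, with a median log2 fold change of 1.27. Of 36 amino acid and peptide genes, 7 were higher and 16 lower (median −0.53), and of 15 genes in the sugar group 4 were higher and 8 lower (median −1.19). Metal carriers were higher in 10 and lower in 5 of 24 (median 0.60), and mitochondrial carriers higher in 10 and lower in 6 of 38 (median 0.30). Ion carriers were split, 10 higher and 9 lower of 33, with a median of −0.04. The remaining groups were small: 4 higher and 2 lower of 13 organic ion carriers, 1 and 3 of 10 carboxylate carriers, 2 and 1 of 11 vitamin and choline carriers, 2 and 3 of 10 nucleoside and fatty acid carriers, and 2 and 1 of 5 vesicular and lysosomal carriers. The groups were chosen with earlier results known and the counts are a description. Over the whole matrix 54.0% of genes were called, 30.6% higher and 23.4% lower. Mitochondrial carriers lay below that share, at 42.1%, and ion carriers near it, at 57.6%. The share called was 62.5% for metal, 63.9% for amino acid and 68.2% for Slc35 genes, and larger still for the sugar group. Of the small groups, only the vesicular and lysosomal carriers lay above the share of all genes. With each library centred on its median, the Slc35 genes stood at 13 higher and 1 lower, and the amino acid genes at 6 higher and 19 lower. Without colony 1 of the double KO the median of the organic ion carriers fell from 0.86 to −0.0037 and that of the vesicular carriers from 0.39 to −0.19, and the amino acid genes then stood at 6 higher and 14 lower.

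Among the amino acid carriers, the light chain of the cystine and glutamate exchanger rose and the carriers Slc7a3 and Slc38a4 fell to near 0. Slc7a11, the exchanger that imports cystine for glutathione synthesis (chr3:49892526-50443614, minus strand, mm10), was at 0.911, 0.367 and 0 CPM in the 3 WT libraries. In the colonies it was at 2 and 0.199 in miR-290 KO, 0.654 and 1.35 in miR-302 KO and 126 and 51.00 CPM in the double KO. Both double KO colonies thus lay above every other sample, at 88.7 ± 53.4 CPM against 0.426 ± 0.458 in WT (SD, n = 2 and 3; log2 change 7.29, SE 0.96, adjusted p 3.74e-05). Its heavy chain Slc3a2, which pairs with several Slc7 light chains, was at 327 and 281 CPM in the double KO and 400.5, 261 and 405 in WT (log2 change −0.20, SE 0.26, adjusted p 0.543), with overlapping values.

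Slc7a3, a cationic amino acid carrier (chrX:101079210-101086020, minus strand), was nearly absent from the double KO. It was at 208, 133 and 169.8 CPM in WT, 134 and 92.04 in miR-290 KO, 71.5 and 189 in miR-302 KO and 1.67 and 0.564 in the double KO (log2 change −7.41, SE 0.43, adjusted p 2.31e-08). Slc38a4, a sodium-coupled carrier of neutral and cationic amino acids (chr15:96994820-97055956, minus strand), was at 128, 174 and 167 CPM in WT and 0.915 and 0.761 in the double KO (log2 change −7.31, SE 0.27, adjusted p 2.18e-10). In both genes the 2 double KO colonies lay below all 11 other samples. Slc7a1, another cationic carrier, fell less, from 89.1, 41.9 and 99.1 CPM to 18.4 and 38.7 (log2 change −1.42, SE 0.36, adjusted p 0.00476), a call lost without colony 1 of the double KO. Slc7a2 of the same function rose, from 2.58 ± 1.69 CPM to 12.1 ± 9.46 (log2 change 2.15, SE 0.65, adjusted p 0.0137), with colonies at 18.7 and 5.37 CPM.

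Other carriers of the group with low or absent reads in the double KO handle glutamate, proline and peptides. Slc1a3, a glial-type glutamate carrier named here after its values were seen, had 3 reads in the double KO libraries and 684 in WT, which in CPM is a 280.0-fold difference (95% interval by the exact method 95.3 to 1360.0, counting error only). Slc1a1, another glutamate carrier, had 0 reads in the double KO and was at least 62.6-fold lower than in WT, with the floor set at 3 reads over the group. Slc6a7, a proline carrier named after its values were seen, also had 0 reads and was at least 60.1-fold lower. Slc15a1, an intestinal peptide carrier, had 1 read against 107 in WT, a ratio of 131 (interval 23.1 to 5230.0).

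Neutral amino acid carriers moved in both directions. Slc1a5, which carries glutamine, fell from 127, 80.03 and 133 CPM to 51.04 and 48.7 (log2 change −1.13, SE 0.25, adjusted p 0.00194), and Slc38a2 from 211, 162 and 214 to 126 and 134 (log2 change −0.57, SE 0.18, adjusted p 0.0183), the latter a call lost in 3 of 23 alternatives (adjusted p up to 0.085). Slc38a1 rose, from 95.5, 98.9 and 99.8 CPM to 201 and 183 (log2 change 0.97, SE 0.20, adjusted p 0.00137). The large neutral amino acid carrier Slc7a5 was not called, at 6.49 and 9.68 CPM against 17.5, 8.85 and 24.2 (log2 change −0.95, SE 0.40, adjusted p 0.0591). Slc7a5 was called with each library centred on its median, and without library 2 of miR-302 KO colony 1. Slc1a4 had colonies at 57.3 and 20.3 CPM and was not called (log2 change 0.40, SE 0.40, adjusted p 0.419). Slc7a14, a lysosomal member, rose from 0.161, 0.681 and 0.615 CPM to 12.97 and 12.9 (log2 change 4.61, SE 0.60, adjusted p 3.66e-05), with both colonies above the other 11 samples.

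**Figure D2:**
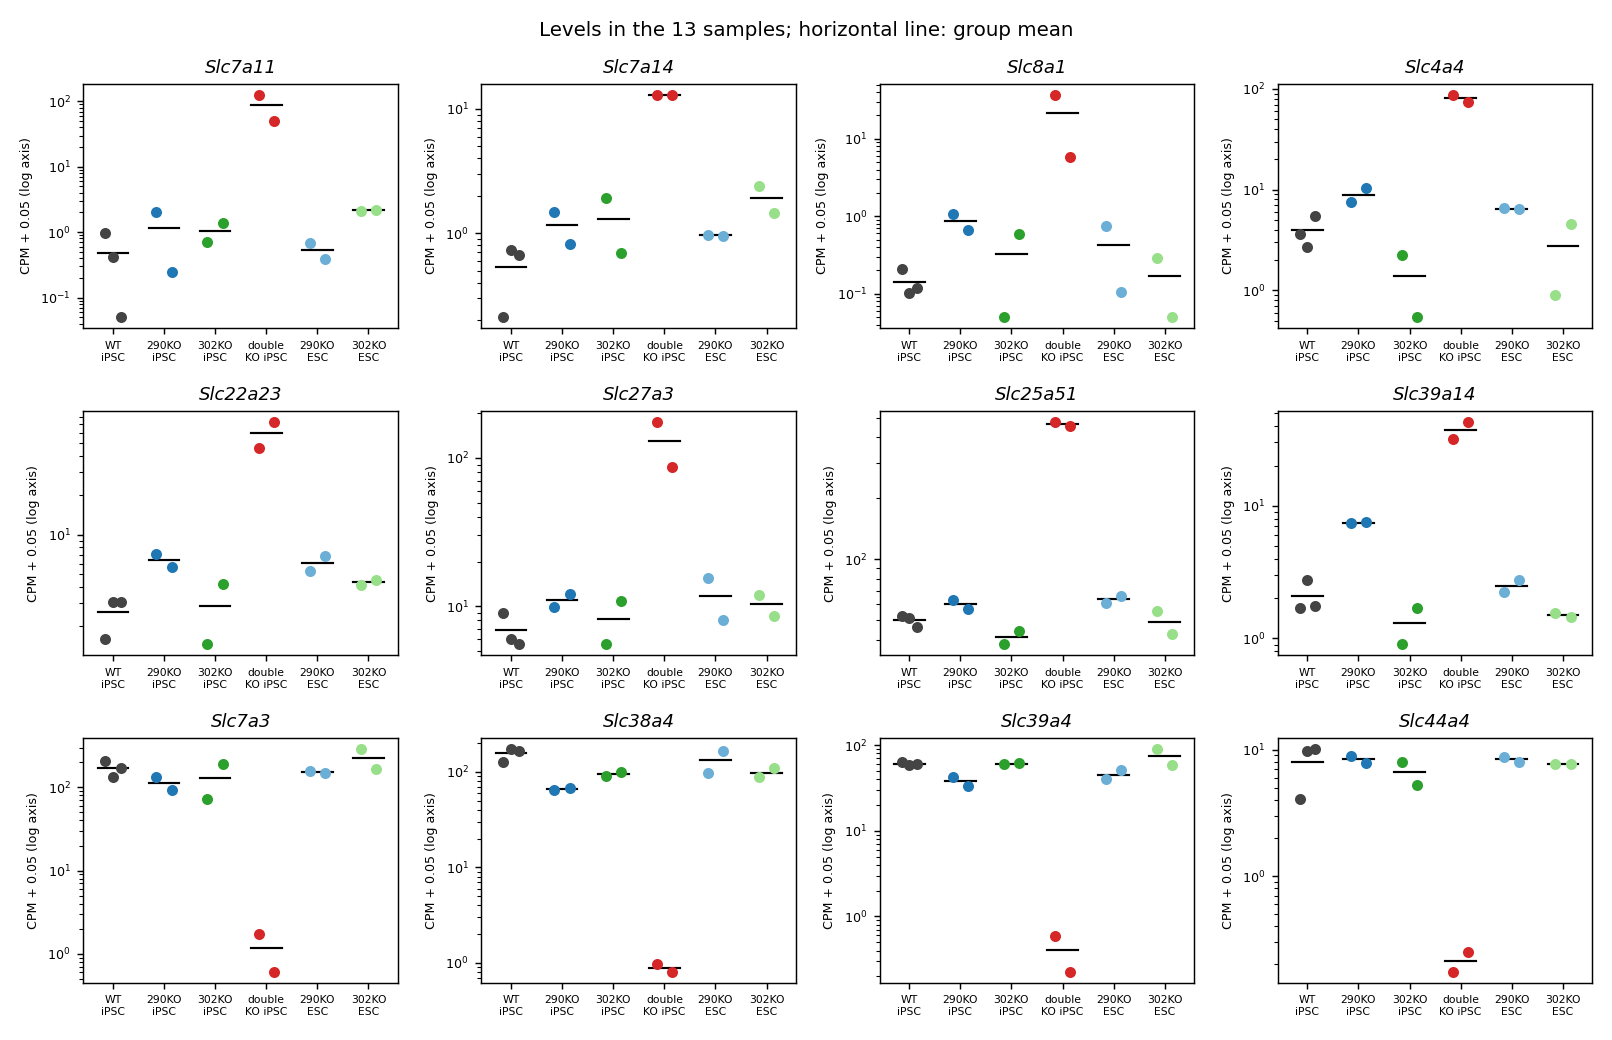
Levels of 12 solute carriers named by rule (y axis, CPM + 0.05, log axis) in the 13 samples of 6 groups (x axis); each point is a WT or ESC library or the mean of the 2 libraries of a colony, and the line is the group mean. The double KO colonies stand above all other samples in the first 8 panels and below them in the last 4.

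Carriers of sugars and of related solutes were mostly lower in the double KO. Slc2a5, the fructose carrier, was at 2.25, 2.62 and 2.67 CPM in WT and had 0 reads in the double KO, at least 53.6-fold lower. Slc5a4b, of the sodium-glucose carrier family, was at 2.09, 1.05 and 1.23 CPM in WT and also had 0 reads, at least 31.5-fold lower. The sodium-glucose carrier Slc5a1, named after its values were seen, was at 4.61, 7.33 and 6.02 CPM in WT and 0.659 and 0.526 in the double KO (log2 change −3.43, SE 0.39, adjusted p 1.06e-05). Slc5a3, the myo-inositol carrier, went the other way, from 4.18, 3.82 and 4.58 CPM to 14.5 and 16.5 (log2 change 1.85, SE 0.30, adjusted p 0.000237). Slc37a4, which brings glucose 6-phosphate into the endoplasmic reticulum, rose from 2.79, 2.36 and 5.26 CPM to 7.81 and 9.72 (log2 change 1.45, SE 0.55, adjusted p 0.0404), a call lost in 8 of 23 alternatives. The group follows family names, so among its 8 lower genes are Slc5a6, a multivitamin carrier, and Slc45a4 (−1.31 and −1.83 on the log2 scale).

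The rises in the Slc35 family took in carriers of known and of unknown substrate. Slc35f5 was at 0.536, 1.78 and 1.78 CPM in WT, 2.75 and 0.9 in miR-290 KO, 0 and 1.81 in miR-302 KO and 32.4 and 21.3 in the double KO (log2 change 4.37, SE 0.79, adjusted p 0.000487). Slc35g2 was at 0, 0.733 and 1.16 CPM in WT and at 3.75 and 24.7 in the double KO (log2 change 4.47, SE 1.05, adjusted p 0.00307), where the colonies differed and the call was lost without colony 2. Slc35a2, the Golgi carrier of UDP-galactose, named after its values were seen, rose from 7.39, 7.65 and 8.82 CPM to 47.2 and 46.1 (log2 change 2.56, SE 0.36, adjusted p 6.13e-05). The GDP-fucose carrier Slc35c1 (log2 fold change 1.74), the UDP-sugar carriers Slc35d1 (1.55) and Slc35b4 (1.60), the sulfate donor carrier Slc35b3 (1.42) and the ATP and ADP exchanger Slc35b1 of the endoplasmic reticulum (1.19) were all called higher. The lone fall was in Slc35f2, from 136, 125 and 101 CPM to 83.2 and 58.04 (log2 change −0.83, SE 0.23, adjusted p 0.00787), and it was not called without colony 2. The CMP-sialic acid carrier Slc35a1 did not pass the test, at 29.9, 30.3 and 33.9 CPM in WT and 52.9 and 38.8 in the double KO (adjusted p 0.0509). It was called without library 2 of miR-302 KO colony 1.

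**Figure D3:**
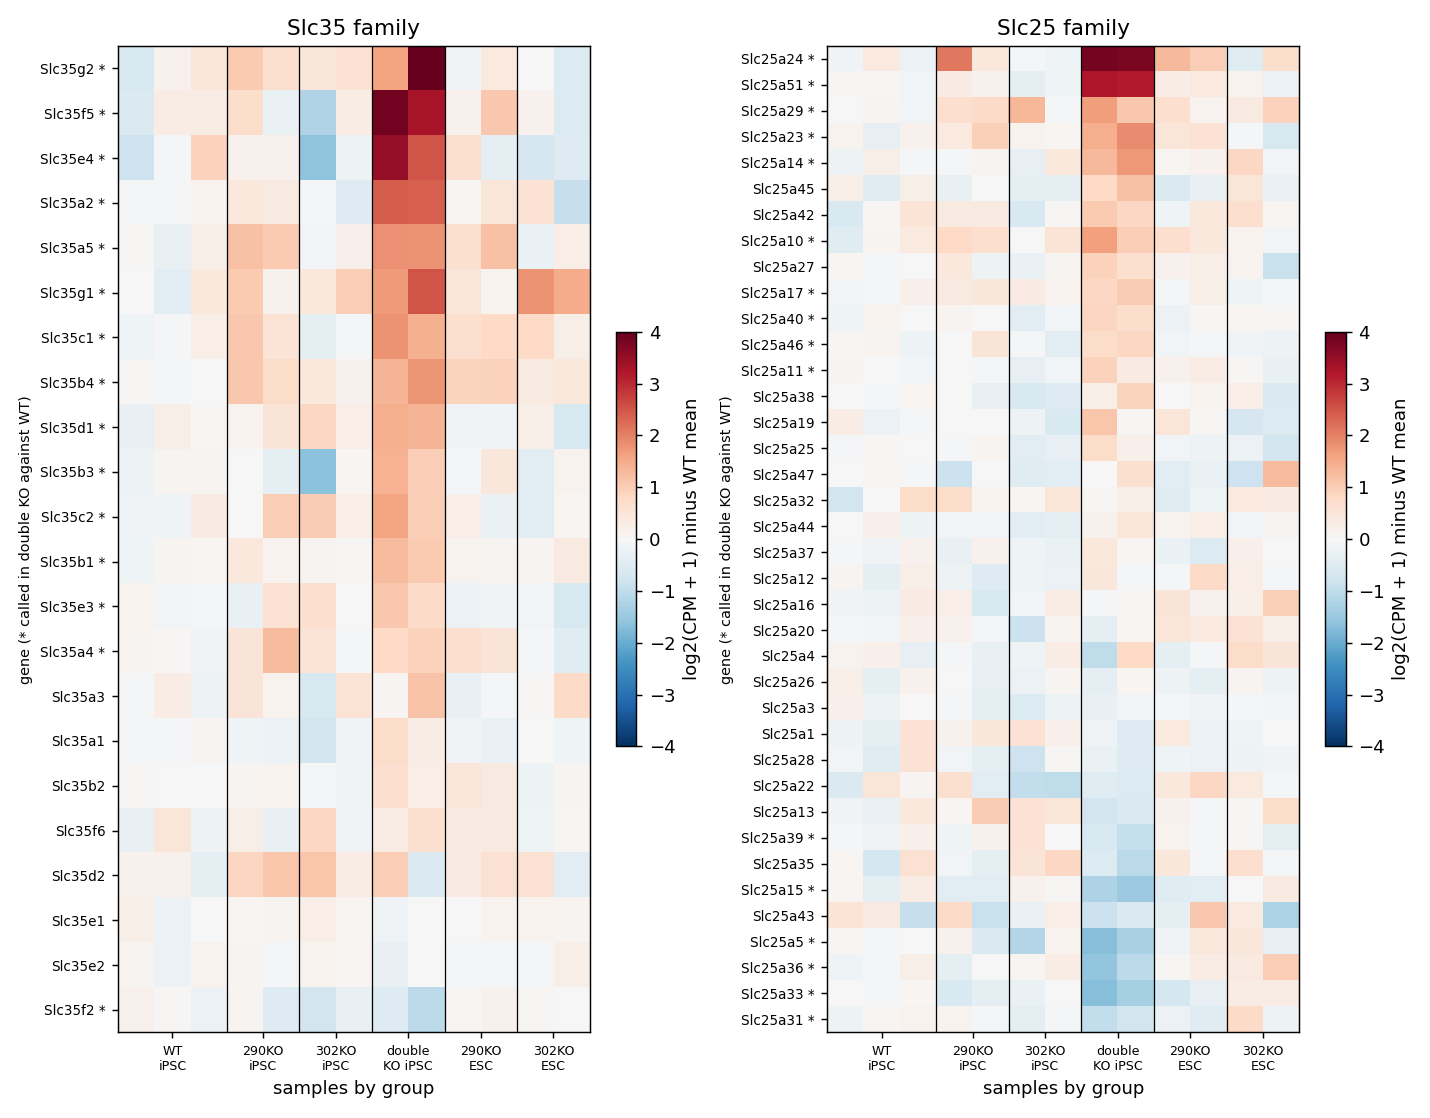
Levels of the 22 Slc35 genes (left) and 38 Slc25 genes (right) in the 13 samples, as log2(CPM + 1) minus the WT mean, with colours limited at −4 and 4; rows are genes ordered by their change in the double KO, columns are samples by group, and stars mark genes called in double KO against WT. In the double KO columns 14 starred Slc35 genes are red and 1 is blue, against 10 and 6 Slc25 genes.

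In the mitochondrial Slc25 family, a few members rose many-fold. The adenine nucleotide carriers Slc25a5, Slc25a4 and Slc25a31 and the phosphate carrier Slc25a3 fell or did not pass. Slc25a51, the NAD carrier (chr4:45395923-45408766, minus strand), was at 52.4, 51.4 and 46.2 CPM in WT, 63.2 and 56.4 in miR-290 KO, 37.9 and 44.2 in miR-302 KO and 476 and 455 in the double KO (log2 change 3.20, SE 0.17, adjusted p 1.09e-08). Slc25a24, the calcium-dependent ATP-magnesium and phosphate carrier, rose from 1.18, 2.15 and 1.03 CPM to 33.1 and 31.8 (log2 change 4.39, SE 0.60, adjusted p 5.41e-05). Both genes were higher in the 2 double KO colonies than in any other sample, and for Slc25a24 the next value was colony 1 of the miR-290 KO.

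Slc25a5, the adenine nucleotide carrier of dividing cells, fell from 705, 666 and 692 CPM in WT to 213 and 281 in the double KO (log2 change −1.51, SE 0.35, adjusted p 0.00267). Its values in the other groups were spread, including 305 and 754 CPM in the miR-302 KO colonies and 623 and 929.6 in the miR-290 KO ESC. The lowest of these, in colony 1 of the miR-302 KO, averages libraries at 537 and 72.1 CPM. Its relative Slc25a4 had 150.1 and 531 CPM in the double KO colonies, either side of WT at 333, 347 and 238 (log2 change −0.15, SE 0.37, adjusted p 0.753), and its direction depended on which colony was kept. The testis form Slc25a31 fell from 0.964, 1.31 and 1.5 CPM to 0.126 and 0.355 (log2 change −2.02, SE 0.62, adjusted p 0.0144), a call lost without colony 1. These 3 share sequence, and reads that the counting could not place are uncertain between them. The phosphate carrier Slc25a3 did not pass, at 953 and 1089.8 CPM in the double KO and 1359.7, 1016 and 1165 in WT (log2 change −0.22, SE 0.17, adjusted p 0.306).

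The pyrimidine nucleotide carriers Slc25a33 and Slc25a36 fell together, the first from 18.4, 17.9 and 19.96 CPM to 5.08 and 6.86 (log2 change −1.65, SE 0.25, adjusted p 0.000112) and the second by a log2 fold change of −1.51. The ornithine carrier Slc25a15 (−1.34) and the glutathione carrier Slc25a39 (−0.76) were also called lower. The citrate carrier Slc25a1 and the carnitine carrier Slc25a20 did not pass, with adjusted p-values of 0.474 and 0.715.

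Among ion carriers, those of sodium with bicarbonate moved in opposite directions. Slc4a4 was at 3.59, 2.67 and 5.4 CPM in WT, 7.41 and 10.3 in miR-290 KO, 2.21 and 0.492 in miR-302 KO and 87.4 and 73.5 in the double KO (log2 change 4.44, SE 0.47, adjusted p 6.13e-06). Slc4a5 (chr6:83219828-83304945, plus strand) was at 54.8, 36.2 and 73.3 CPM in WT and 0.295 and 0.465 in the double KO (log2 change −6.66, SE 0.46, adjusted p 1.12e-07). Slc4a7, named after its values were seen, rose from 38.7, 39.4 and 52.9 CPM to 135 and 112 (log2 change 1.55, SE 0.21, adjusted p 4.75e-05). The sodium and calcium exchanger Slc8a1 was at 0.161, 0.0524 and 0.0684 CPM in WT and 36.9 and 5.85 in the double KO (log2 change 5.96, SE 0.93, adjusted p 0.000159), where the colonies differed several-fold.

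The phosphate carrier Slc20a1 fell from 291, 218 and 224 CPM to 131 and 126 (log2 change −0.95, SE 0.19, adjusted p 0.000886), and Slc34a3, another phosphate carrier, from 1.71, 2.36 and 1.91 to 0 and 0.12 (log2 change −3.55, SE 0.66, adjusted p 0.00059). The fall of Slc12a2, a sodium, potassium and chloride carrier, was small (log2 change −0.59, SE 0.21, adjusted p 0.0309) and the call was lost in 5 of 23 alternatives.

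Zinc carriers showed the widest range among metals. Slc39a4, which imports zinc at the surface (chr15:76612383-76617384, minus strand), was at 63.1, 58.9 and 60.03 CPM in WT, 42.5 and 33.00 in miR-290 KO, 60.3 and 61.1 in miR-302 KO and 0.546 and 0.178 in the double KO (log2 change −7.18, SE 0.28, adjusted p 4.29e-10). Slc39a14, another importer, was at 1.66, 2.72 and 1.71 CPM in WT, 7.34 and 7.48 in miR-290 KO and 31.5 and 42.7 in the double KO (log2 change 4.11, SE 0.44, adjusted p 6.78e-06). Slc39a6 rose from 11.3, 12.5 and 19.5 CPM to 55.4 and 54.8 (log2 change 2.03, SE 0.37, adjusted p 0.000535), a level that colony 2 of the miR-290 KO came near. Of 10 Slc39 genes 6 were higher and 3 lower.

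The vesicular zinc exporter Slc30a2 fell from 6.21, 9.38 and 8.14 CPM to 0.134 and 0.178 (log2 change −4.77, SE 0.35, adjusted p 1.87e-07). The surface exporter Slc30a1 and the importer Slc39a1 did not pass (adjusted p 0.381 and 0.112). Further metal carriers, named after their values were seen, were called higher: the heme carrier Slc48a1, from 18.4, 17.8 and 25.02 CPM to 89.4 and 61.5, and the copper importer Slc31a1, at a log2 fold change of 0.72.

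The smaller groups held single large changes. Slc27a3, of the fatty acid carrier family, rose from 9, 5.97 and 5.47 CPM to 175 and 86.3 (log2 change 4.12, SE 0.42, adjusted p 4.69e-06), and its relative Slc27a2 fell from 3, 2.72 and 4.24 to 0.0354 and 0.0285 (log2 change −4.28, SE 0.37, adjusted p 9.73e-07). Slc22a23, an organic ion carrier family member, was at 1.55, 2.99 and 3.01 CPM in WT and 46.04 and 72.8 in the double KO (log2 change 4.59, SE 0.46, adjusted p 3.74e-06). The prostaglandin carrier Slco2a1 rose from 0.75, 0.89 and 1.16 CPM to 11.7 and 11.96 (log2 change 3.55, SE 0.92, adjusted p 0.00561). Slc51a, a subunit of a steroid and bile acid carrier, had 0 reads in the double KO and was at least 34.4-fold lower, and the bile acid carrier Slc10a1 fell from 2.84, 1.47 and 1.91 CPM to 0.366 and 0.316 (log2 change −2.27, SE 0.46, adjusted p 0.00105).

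Slc44a4, a choline-like carrier, fell from 4.02, 9.79 and 10.1 CPM to 0.126 and 0.2 (log2 change −4.77, SE 0.44, adjusted p 1.67e-06) while Slc44a2 rose from 10.2, 13.9 and 12.7 to 41.8 and 38.1 (log2 change 1.71, SE 0.30, adjusted p 0.000351). The vesicular nucleotide carrier Slc17a9 fell from 15.6, 24.9 and 23.7 CPM to 0.771 and 2.38 (log2 change −4.03, SE 0.46, adjusted p 1.26e-05). The lactate carriers Slc16a1 and Slc16a3 did not pass (adjusted p 0.707 and 0.273), nor did the folate carrier Slc19a1 (0.909). The thiamine carrier Slc19a2 was called higher (log2 change 1.97, SE 0.66, adjusted p 0.0223), and lost the call in 5 of 23 alternatives.

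A few carriers set the 2 double KO colonies apart. Slc47a1, an exporter of organic cations named after its values were seen, was at 217 and 1.26 CPM in colonies 1 and 2, against 2.2, 1.83 and 2.26 in WT. It was not called (log2 change 2.96, SE 1.38, adjusted p 0.0868), and the high level rests on colony 1. Slc50a1, chosen the same way, had 50.8 and 4.42 CPM in the colonies and 4.93, 5.45 and 8.75 in WT (adjusted p 0.118).

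The single losses were compared with WT next, to ask what each cluster alone accounts for. In miR-290 KO iPSC 3 carriers were higher and 5 lower, which is 3.69% of the 217, beside 3.02% of all genes (2.35% higher and 0.673% lower). With each library centred on its median, 1 was higher and 6 lower, and the calls over all genes went from 300 higher and 86 lower to 164 and 155. In miR-302 KO iPSC 0 carriers were called by limma, with 14 at an unadjusted p under 0.05, beside 0.0391% of all genes. No other tool was run. Without colony 2 of the miR-302 KO, 3 carriers were called higher and 38 lower, on colony 1 alone, which holds the library with the highest share of reads in few genes. Leaving out only that library, with both colonies kept, gave 0, as the main fit had. Colony 1 was not fitted alone without that library, so its part in these calls was not tested.

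**Figure D4:**
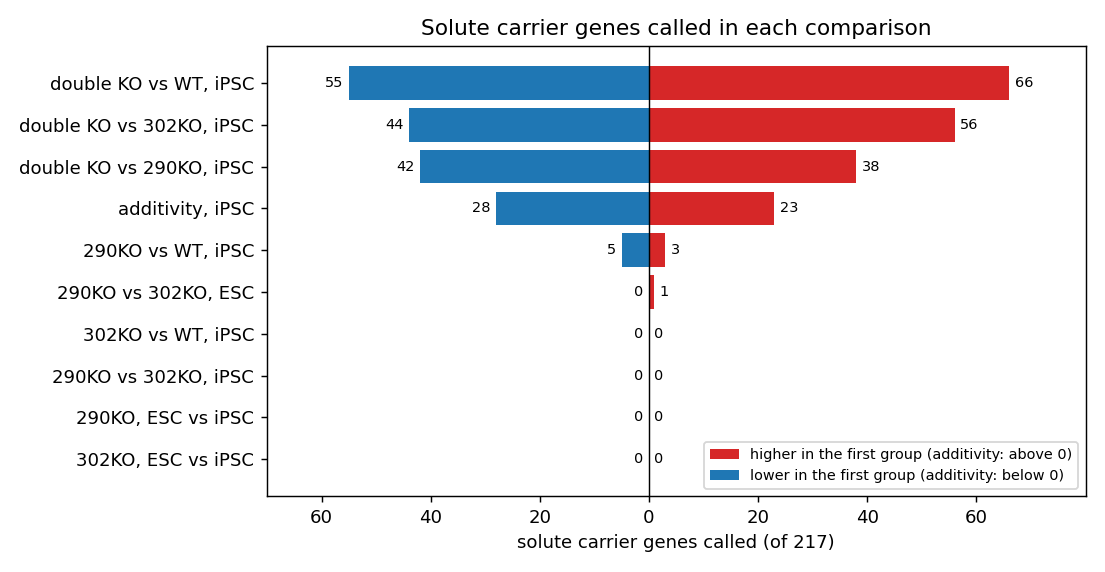
Number of solute carriers called in each of the 10 comparisons (x axis, of 217; red to the right higher, blue to the left lower in the first group). Double KO against WT has 66 and 55, miR-290 KO against WT 3 and 5, and miR-302 KO against WT 0 and 0.

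The bicarbonate carrier Slc4a5 had the smallest adjusted p of the carriers in miR-290 KO against WT. It was at 10.3 and 3.77 CPM in the 2 colonies, below WT at 54.8, 36.2 and 73.3 and miR-302 KO at 40.1 and 77.8 (log2 change −3.09, SE 0.47, adjusted p 0.00773). The call was lost in 1 of 23 alternatives, without colony 2 of the miR-290 KO (adjusted p 0.0912). In ESC it was at 22.8 and 17.7 CPM in miR-290 KO and 131 and 41.9 in miR-302 KO, which do not overlap, but the difference did not pass (log2 change −1.88, SE 0.54, adjusted p 0.152).

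The glutamate carrier Slc1a1 was at 0.0311 and 0.494 CPM in the miR-290 KO colonies and 3.21, 1.05 and 4.99 in WT (log2 change −3.01, SE 0.74, adjusted p 0.0469), and in ESC at 0.404 and 0.564 in miR-290 KO and 3.64 and 1.51 in miR-302 KO (adjusted p 0.325). The peptide carrier Slc15a1 was at 0.516 and 0.175 CPM in the miR-290 KO colonies and 1.87, 2.25 and 1.98 in WT (log2 change −2.40, SE 0.56, adjusted p 0.0376). Slc38a4 was at 65.4 and 68.7 CPM against 128, 174 and 167 (log2 change −1.21, SE 0.27, adjusted p 0.0344), and Slc39a11, a zinc carrier family member, at 26.1 and 26.4 against 52.5, 44.9 and 57.2 (log2 change −0.98, SE 0.24, adjusted p 0.0469). The call was lost in 17 of 23 alternatives for Slc1a1, 9 for Slc15a1, 10 for Slc38a4 and 15 for Slc39a11, always with the same direction.

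The 3 higher genes were Slc27a2, the taurine carrier Slc6a6 and the UDP-sugar carrier Slc35b4. Slc27a2 (chr2:126552407-126588243, plus strand), a very long-chain fatty acid carrier, was at 11.7 and 9.6 CPM in the miR-290 KO colonies, 3, 2.72 and 4.24 in WT and 1.97 and 1.91 in miR-302 KO (log2 change 1.70, SE 0.38, adjusted p 0.0331). In ESC it was at 8.48 and 12.5 CPM in miR-290 KO and 1.7 and 0.988 in miR-302 KO (log2 change 2.86, SE 0.44, adjusted p 0.0138). Each miR-290 KO sample, iPSC or ESC, thus lay above every sample of the other groups. The ESC call was lost on dropping 1 miR-290 KO ESC library, whichever it was, and when only the ESC groups were fitted (adjusted p up to 0.307). Slc27a2 was at 0.0354 and 0.0285 CPM in the double KO. Slc6a6 was at 224 and 202 CPM against 78.1, 73.7 and 153 in WT (log2 change 1.21, SE 0.28, adjusted p 0.0368), and Slc35b4 at 40.02 and 31.1 against 19.01, 17.2 and 18.5 (log2 change 0.94, SE 0.23, adjusted p 0.0434). The call was lost in 11 of 23 alternatives for Slc27a2, 12 for Slc6a6 and 17 for Slc35b4.

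**Figure D5:**
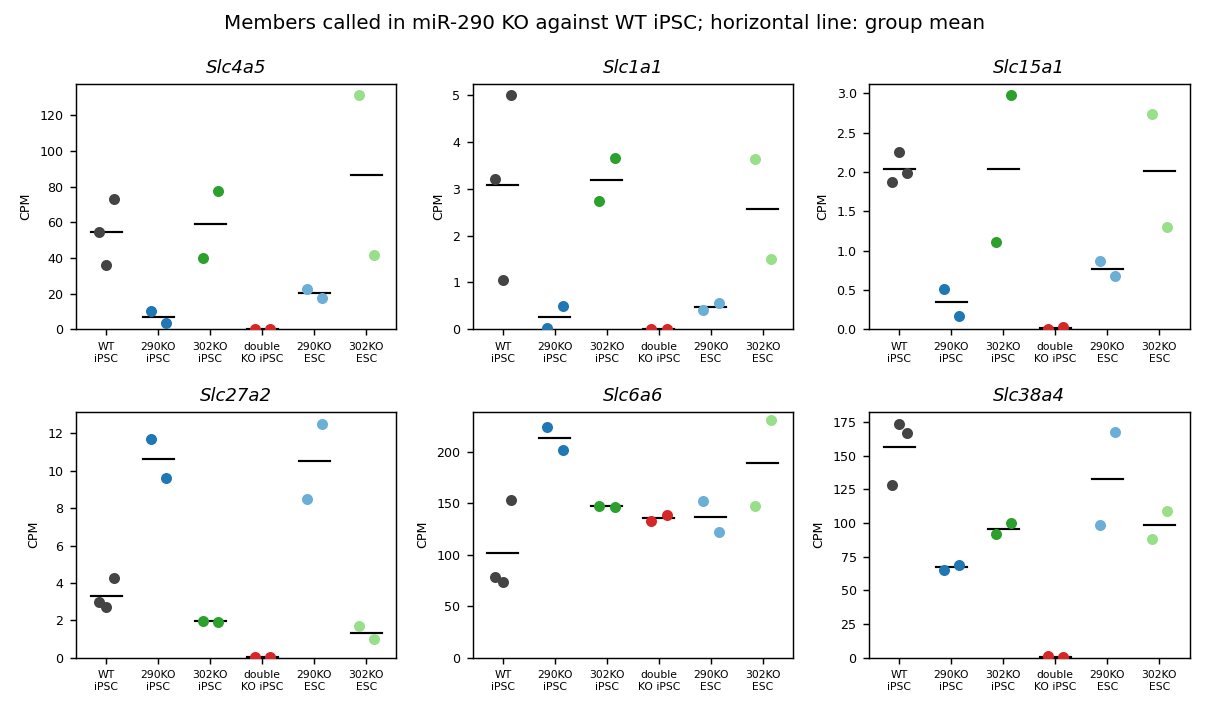
Levels (y axis, CPM from 0) of 6 of the 8 solute carriers called in miR-290 KO against WT iPSC, in the 13 samples of 6 groups (x axis); points and lines as in the log-axis plot of levels. Slc4a5, Slc1a1 and Slc15a1 are low and Slc27a2 is high in the miR-290 KO samples of both iPSC and ESC, and all of these are near 0 in the double KO.

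Slc40a1, the iron exporter, and Slc5a5, the iodide carrier, both named after their values were seen, were also above WT in miR-290 KO iPSC. They did not pass the test. In miR-290 KO ESC both lay above miR-302 KO ESC. The lower of these ESC values for Slc5a5, 3.52 CPM, was under the highest of WT, 4.77. Slc40a1 was at 28.00 and 15.1 CPM in miR-290 KO iPSC, 2.09, 9.58 and 1.91 in WT, 2.4 and 2.99 in miR-302 KO iPSC, 9.98 and 20.7 in miR-290 KO ESC and 1.15 and 2.6 in miR-302 KO ESC. Its adjusted p was 0.139 against WT and 0.161 between the ESC groups. Slc5a5 was at 13.6 and 12.4, 0.803, 4.77 and 1.37, 0.5 and 0.745, 3.52 and 10.3 and 0.303 and 0.728 CPM in the same order (adjusted p 0.103 and 0.161). In the double KO they were at 3.12 and 5.88 and 0.625 and 1.92 CPM, within or near the range of WT.

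Comparisons among the remaining single KO groups gave few calls. Between miR-290 KO and miR-302 KO iPSC, 0 carriers were called by limma and 25 had an unadjusted p under 0.05, beside 0.18% of all genes called. The smallest adjusted p was that of Slc4a4, at 7.41 and 10.3 and 2.21 and 0.492 CPM (log2 change 3.52, SE 0.66, adjusted p 0.0629). Giving all samples the same weight called 7 carriers, and leaving out the miR-302 KO library noted above called 5. Between the ESC groups, Slc27a2 was the 1 carrier called (0.461%, beside 0.618% of all genes), and 33 had an unadjusted p under 0.05. Between ESC and iPSC of the same genotype, 0 carriers were called for miR-290 KO (11 at an unadjusted p under 0.05, beside 0.0313% of all genes called) and 0 for miR-302 KO (13, beside 0.0% of all genes). A count of 0 in these small groups does not show that the levels are alike.

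The double KO was also set against each single KO, and its change against the sum of the single changes. Against miR-290 KO iPSC 38 carriers were higher and 42 lower (36.9%, beside 33.4% of all genes, 16.2% higher and 17.2% lower). Against miR-302 KO iPSC 56 were higher and 44 lower (46.1%, beside 38.6% of all genes, 23.3% higher and 15.2% lower). With each library centred on its median the latter became 46 and 46. In 51 carriers (23.5%, beside 20.2% of all genes, 9.98% above and 10.2% below) the double KO differed from the sum of the 2 single changes, 23 above it and 28 below. These comparisons share the double KO samples, so their overlap is not given as a result.

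Values for the members with the largest departures lie side by side as follows. For Slc39a4 the log2 fold change was −0.70 in miR-290 KO, −0.02 in miR-302 KO and −7.18 in the double KO, a departure of −6.46 (SE 0.49, adjusted p 1.37e-06). For Slc7a3 these were −0.63, −0.89 and −7.41, a departure of −5.89 (SE 0.75, adjusted p 0.00014). Slc38a4 had −1.21, −0.69 and −7.31, a departure of −5.41 (SE 0.46). Slc38a4 was already called lower in miR-290 KO against WT, and in the double KO all 3 carriers lay below every other sample.

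Among the rises, Slc7a11 had 0.45 in miR-290 KO, 0.63 in miR-302 KO and 7.29 in the double KO, a departure of 6.22 (SE 1.65, adjusted p 0.0198), which was not called without colony 2 of the miR-290 KO or colony 1 of the double KO. Slc35f5 departed by 5.66 (SE 1.37, adjusted p 0.012). Slc15a2, a peptide carrier at 2.36, 0.681 and 1.44 CPM in WT, 0.076 and 0.0199 in miR-290 KO, 0.284 and 1.74 in miR-302 KO and 3.92 and 4.45 in the double KO, departed by 5.65 (SE 1.71, adjusted p 0.0349), a call lost in 8 of 23 alternatives.

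The seed match was then counted by direction. It was present in the annotated 3′ UTR of 15 of 66 carriers that were higher in the double KO (22.7%) and 7 of 55 that were lower (12.7%). Over all genes with a 3′ UTR, 20.0% of higher and 12.6% of lower genes held it. Median 3′ UTR length differed as well, at 1779 bases in higher and 983 in lower carriers, so the length of the sequence searched moves with the count and its part was not tested. Slc7a11 and Slc22a23, with the matches printed above, were among the largest rises, while Slc7a3, Slc38a4 and Slc39a4 held none in the UTR searched. The 7 lower carriers with a match included Slc6a9, which holds 2, Slc6a15, Slc10a1 and Slc5a4b, which had 0 reads in the double KO. Slc25a51 and Slc8a1 also rose without a match to this seed in that UTR. Matches to the other seeds of the clusters were not counted.

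Genes next to the carriers in function were read from fixed lists, beside the 54.0% of all genes called (30.6% higher and 23.4% lower). Of 25 carriers without an Slc symbol, 9 rose and 4 fell in the double KO, among them the pyruvate carrier subunits Mpc1 and Mpc2 (log2 fold changes 1.83 and 1.51) and the uncoupler Ucp2 (−5.47), and at 52.0% called the list was near the share of all genes. Of 3 chaperones that bring carriers to the surface, Nptn was higher and Emb lower. Of 14 ATP-driven ion pumps 7 were higher and 4 lower, which is 78.6%, and of 17 ABC transporters 3 and 4, which is 41.2%. Of 19 genes of the amino acid response, which several amino acid carriers belong to, 3 were higher and 8 lower (57.9% called, near the share of all genes, with a median of −0.86), with Asns at −1.81 and Atf4 not called (−0.36, adjusted p 0.232).

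The authors' deposited table for double KO against WT lists 162 solute carriers under the same name rule, 77 higher and 85 lower. It holds 119 of the 121 called here, all in the same direction. It also lists carriers that were tested and not called here. Examples are Slc7a5 (log2 fold change −1.33), Slc3a2 (−0.52), Slc25a3 (−0.51), Slc25a1 (−0.66), Slc16a3 (−0.91) and Slc47a1 (5.42). Of the 162, 19 are not in the matrix and were not tested here. They include rises, such as Slc6a14 (log2 fold change 9.70) and Slc39a8 (9.15), and falls, such as Slc22a3 (−7.06) and Slc10a6 (−6.07). The counts, group medians and largest changes given above cover only carriers in the matrix. For miR-290 KO, the authors' deposited table lists 30, 13 higher and 17 lower, and holds all 8 of the genes called here in the same direction. Others that it lists, such as Slc5a5 (log2 fold change 2.31) and Slc1a3 (−1.58), were tested and not called here. For miR-302 KO, the authors' deposited table lists 0. In the authors' deposited table Slc7a11 has a log2 fold change of 7.35 and Slc38a4 of −7.83 in the double KO. The model behind the authors' deposited tables is not given in the sources used here, and the agreement in direction is not an independent check, since the libraries are the same.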

How the data were processed

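The authors' deposited matrix holds log2 values for 19 QuantSeq libraries and 12778 genes. The values behave as log2 CPM with some prior reads, shifted by a constant for each gene: for 96.0% of genes 1 constant gave whole reads, and 99.6% of their values were whole within 0.02 of a read. All 217 solute carriers were among them. The means recomputed from these reads were within 5% of the signal (mean normalized count) in the authors' deposited tables for 100.0% of shared genes, after scaling to the same median ratio. Per the file headers, those tables also hold log2 fold changes, their standard errors, a score for each test and its p-value before and after adjustment. Per the submitters' processing notes, Trim Galore 0.66, STAR, Salmon 1.4.0, FastQC 0.11.9, MultiQC, limma and DESeq2 1.34.0 were used with mm10, in no stated order or role. How reads shared by near-identical genes were counted is not given in the sources used here. In the matrix 6 columns that matched no sample were not used.

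Values of both libraries of a colony were averaged, which left 13 samples. limma 3.58.1 in R 4.3.3 was fitted once to all genes and groups, with a variance trend, estimated sample weights (0.53 to 2.14) and 7 residual degrees of freedom. This assumes that WT and ESC libraries vary like colonies. CPM come from recovered reads scaled to a common total. Ratios with 1 to 3 reads in a group have exact (Clopper-Pearson) 95% intervals, 0 reads are set to a floor of 3 reads over the group, and both cover counting error only, since reads were not marked by molecular identifiers and PCR copies are not independent.

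Named genes were, per role group, the 2 largest rises and falls called in double KO against WT; all genes called in a single KO against WT; the 3 largest rises and falls called in each other comparison; and a list of 25 well-known carriers. A few of the genes so named are not reported here. Others are named after their values were seen, as stated or as examples of a counted group. Members, groups and lists were chosen with earlier results of these data known. 3′ UTR matches used the principal coding transcript of GENCODE M21, on the message strand.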

Additional observations from a re-analysis of the deposited data

Results flagged for a closer look

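For 6 solute carriers the change in the double KO against WT iPSC differed from the sum of the changes in both single KOs, by the limma test of that difference over all genes. Each was among the 3 largest departures in its direction. The departure on the log2 scale was 6.22 for Slc7a11, 5.66 for Slc35f5 and 5.65 for Slc15a2, and −6.46 for Slc39a4, −5.89 for Slc7a3 and −5.41 for Slc38a4. No group held 4 or more samples, so a search for outlying samples was not made.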

How the results depend on the processing

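Of the settings tried, the counts of solute carriers called in double KO against WT, double KO against miR-302 KO and the ESC-iPSC comparisons stayed within 1.5 times of the value reported, apart from fits with 1 sample left out. Treating each library as a sample, which counts libraries of 1 colony as independent, gave 28 calls in miR-290 KO against WT, 128 in double KO against miR-290 KO, 19 between miR-290 KO and miR-302 KO iPSC, and 86 for additivity. In miR-290 KO against WT equal sample weights gave 2 calls, fitting only the groups compared gave 2, leaving out library 2 of colony 2 of the miR-290 KO, the library with the fewest reads, gave 1, and leaving out library 2 of colony 1 of the miR-302 KO gave 4. Between the single KO iPSC, equal weights gave 7, log2(CPM + 1) of recovered reads gave 1 and leaving out that miR-302 KO library gave 5. Between the ESC groups, fitting only these groups gave 0. The cause of these differences was not tested, except that the last fit and the fits of 2 groups use fewer samples.

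With 1 sample left out at a time, the counts ran from 97 to 123 for double KO against WT, 0 to 8 for miR-290 KO against WT, 0 to 41 for miR-302 KO against WT, 53 to 80 for double KO against miR-290 KO and 80 to 114 against miR-302 KO. They ran from 0 to 27 between the single KO iPSC, 0 to 2 and 0 to 19 for ESC against iPSC in miR-290 KO and miR-302 KO, 0 to 10 between the ESC groups and 32 to 71 for additivity. Slc25a4 in double KO against WT reversed without colony 1 of the double KO, at a log2 fold change of 0.76, and stood at −1.1 without colony 2, called each time (adjusted p 0.0312 and 0.00505). For named genes, 1871 values kept direction and side of the threshold, 153 lost the call, 12 gained it and 11 reversed. The other 10 reversals were in genes called in neither fit, in double KO against WT. With centring Slc16a1 went from 0.13 to −0.05 and Slc19a1 from 0.06 to −0.06, and with each library as a sample Slc25a4 stood at 0.19. With 1 sample left out, values ran from −0.12 to 0.31 for Slc16a1 (−0.04 without double KO colony 2), −0.35 to 0.27 for Slc19a1, −0.35 to 1.14 for Slc1a4, −0.33 to 0.11 for Slc25a20, −0.8 to 0.15 for Slc30a1 and −0.1 to 1.09 for Slc39a1.

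Colony numbers join no samples by design, since colonies were derived independently, and deviations of same-numbered colonies correlated at −0.27, −0.03 and −0.01. A replicate block was made of the colony number, or of the library number in WT and ESC. With it, 118 carriers were called in double KO against WT and 2 in miR-290 KO against WT. For the double KO, 64 were called against miR-290 KO and 91 against miR-302 KO, with 37 for additivity. Over all genes, equal weights gave 155 higher and 46 lower in miR-290 KO against WT, where the weighted fit gave 300 and 86, and centring each library gave 164 and 155. Between the single KO iPSC, equal weights gave 237 higher and 50 lower over all genes, where the weighted fit gave 17 and 6. Depth limits carriers under about 1 CPM, where a few reads set the value.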
